A study of Drosophila melanogaster with 2 samples.

Results

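The genes described here encode the subunits of the Drosophila proteasome and their close copies. They were chosen by symbol from the Ensembl annotation of dm6, as every protein-coding gene whose symbol starts with Prosalpha, Prosbeta, Rpn or Rpt followed by a number. The rule found 48 of 13945 protein-coding genes on the chromosome arms. Of these, 32 are standard subunits, 7 of the alpha rings, 7 of the beta rings, 10 of the base and 8 of the lid. The other 16 carry a letter after the number (T or R) and are called paralogs here.

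The data came from chromatin immunoprecipitation and sequencing of whole embryos collected over 0 to 24 h of development. All samples shared 1 genotype, strain inv-GFP, in which flies express a fusion of Invected to enhanced green fluorescent protein (Inv-eGFP) from an insertion targeting inv, and all were precipitated with an antibody against GFP. Invected binds DNA through a homeodomain and is a close relative of Engrailed. The 2 biological replicates formed 1 group with no second condition, and neither an untagged strain nor a control library was analysed here. A signal from whole embryos averages over all their cells and stages, and the labels' cell type could not be checked because the files hold no transcript levels.

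The proteasome degrades proteins marked with ubiquitin. Its core particle is a barrel of outer alpha rings, which gate the entrance, and inner beta rings, which hold the proteolytic sites. A regulatory particle sits on the barrel: the base holds the Rpt ATPases that unfold substrates and the receptors that bind ubiquitin, and the lid holds the enzyme that removes ubiquitin. The standard subunits are used in nearly every cell, whereas several paralogs, among them those with a T in the symbol, are known from the testis.

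The authors' pooled thresholded list placed 3393 peaks on the chromosome arms, and each replicate had a list of its own, with 2858 peaks in replicate 1 and 2129 in replicate 2. A gene was counted as having a promoter summit when the summit of a listed peak lay within 1 kb of one of its transcription start sites (TSS). Signal is the authors' own height for each peak, in units that are not stated. It ranks peaks within 1 list and is not set against another list. A gene without a promoter summit is one with no listed summit in that window. Read depth is unknown, so this is not evidence that Inv-eGFP was absent.

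Of the 32 standard subunit genes, 21 had a promoter summit in the pooled list, or 65.6%, against 27.2% of all protein-coding genes. Of the 16 paralogs, 1 had one, or 6.25%. The split was present in each replicate's own list. In replicate 1, 18 standard genes and 0 paralogs had a promoter summit, against 25.4% of all genes, and in replicate 2 the counts were 15 and 0, against 18.5%. In the conservative pooled list they were 19 and 0, against 23.1%. Both replicates listed 14 of the 32 standard genes, against 2384 of all 13945 protein-coding genes. These are counts of genes over the same 2 libraries, and no test was run on them.

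**Figure D1:**
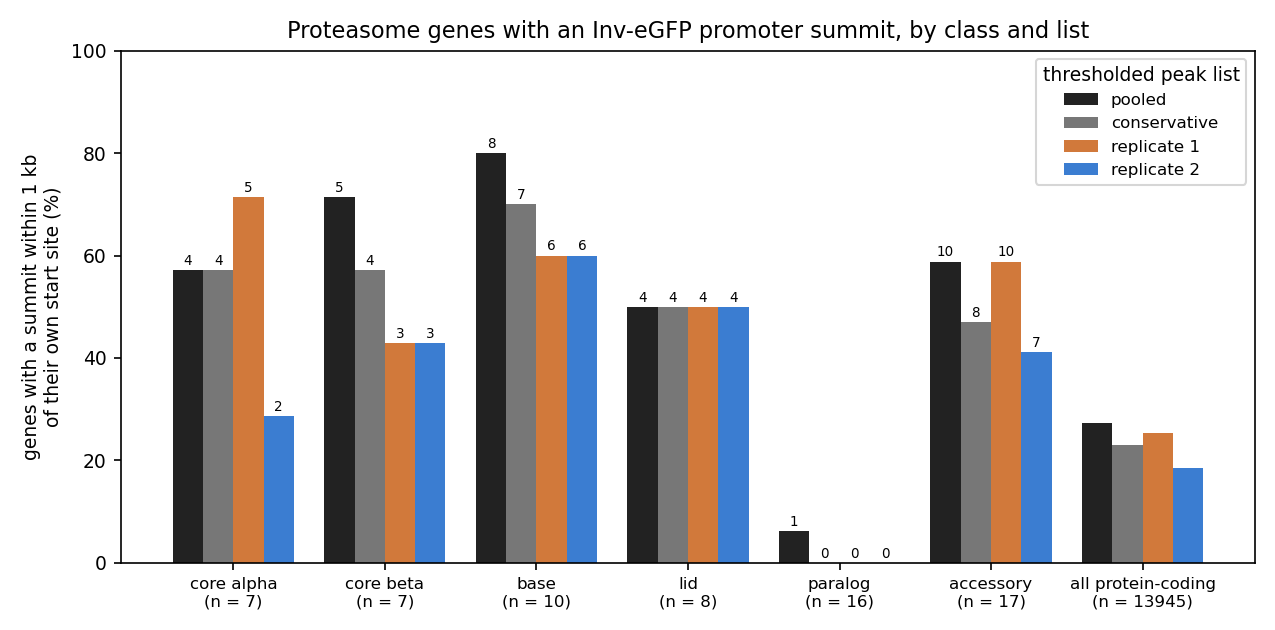
Percentage of genes (vertical axis) with a summit within 1 kb of their own TSS, by class (horizontal axis) in the 4 thresholded lists. Numbers above the bars are gene counts. Base genes had the highest pooled share, 8 of 10, and paralogs the lowest, 1 of 16, beside 27.2% of all genes.

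Other large sets of housekeeping genes had shares of the same order. Among genes named as cytosolic ribosomal proteins 53 of 92 had a promoter summit (57.6%), and among mitochondrial ribosomal proteins 41 of 73 did (56.2%). No difference between these sets and the standard subunits was tested.

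In the alpha rings, 4 of 7 genes had a promoter summit. Prosalpha7 was the strongest, with a signal of 903 in the pooled list (rank 86 on the arms), 636 in replicate 1 and 283 in replicate 2. Its summit lay 34 bp upstream of its TSS, with CG1671 starting 225 bp away in the opposite direction. Prosalpha6 had a signal of 206 in the pooled list, 151 in replicate 1 and 52.0 in replicate 2, and its summit lay 6 bp upstream of the TSS. Both genes were in all the thresholded lists. Prosalpha4 (115.4) and Prosalpha3 (110) were in the pooled, conservative and replicate 1 lists but not in that of replicate 2. In the ranked list of replicate 2, which has no threshold on reproducibility, they stood at 37.1 and 36.2. Prosalpha1, Prosalpha2 and Prosalpha5 had no pooled summit.

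The beta rings carry the active sites, and 5 of their 7 genes had a promoter summit. The genes of all 3 catalytic subunits were among them. Prosbeta2, the trypsin-like subunit, had signals of 535 pooled, 376 in replicate 1 and 173 in replicate 2. Prosbeta1, the caspase-like subunit, had 460, 369 and 107 in the same order. Prosbeta5, the chymotrypsin-like subunit, had 244, 189 and 47.2, and its replicate 2 peak scored 819, just under the lowest listed score of 830. The catalytic subunits held the strongest signals of the beta class in the pooled list and in replicate 1. In replicate 2 the Prosbeta7 peak, at 50.9, stood above that of Prosbeta5. The strongest summits of Prosbeta1 and Prosbeta2 lay nearer to the starts of neighbours, 25 bp from Rrp42 and 91 bp from mRpL39. Prosbeta7, a structural subunit, stood at 86.4 in the pooled list and was listed in replicate 2 but not in replicate 1. The Prosbeta4 summit was unlike the rest in its place, 641 bp downstream of the TSS in a coding exon. It had a signal of 69.9, was listed in neither replicate, and was also nearer to a neighbour's TSS, that of CG17996, 453 bp away. Prosbeta3 and Prosbeta6, also structural, had none.

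The base had the largest pooled share, 8 of 10. In replicate 1 it had 6 of 10, below the 5 of 7 of the alpha rings. Of the 6 Rpt ATPases, which form the unfolding ring, 5 had a promoter summit. Rpt3 had a signal of 269 in the pooled list, 168 in replicate 1 and 90.8 in replicate 2. Rpt1 had 238, 178 and 63.5. Rpt5 had 238, 145 and 85.6. Rpt6 had 212, 135 and 78.5. These 4 ATPase genes lay between 212 and 269 in the pooled list, and each was listed in both replicates. Rpt2 was weaker, with 80.2 pooled, and was listed in neither replicate, while Rpt4 had no promoter summit. Rpt3 carried 3 promoter summits, of which the strongest lay at -337 bp from its own TSS and 38 bp from the TSS of its neighbour CG11122.

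The non-ATPase subunits of the base ranged more widely. Rpn10, a ubiquitin receptor, had signals of 858 pooled, 629 in replicate 1 and 229 in replicate 2. Rpn2, a scaffold subunit, had 434, 303 and 135. Rpn1, the other large scaffold, had 83.3 pooled and was listed in neither replicate, where its ranked peaks stood at 53.6 and 37.6. Rpn13, which like Rpn10 binds ubiquitin, had none. Rpn10 and Rpn13 were thus split between one of the strongest summits among the subunits and no listed summit.

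In the lid, 4 of 8 genes had a promoter summit, and all 4 were listed in both replicates. Rpn6 had the strongest summit of any subunit gene, with a signal of 1930 in the pooled list, 1391 in replicate 1 and 554 in replicate 2, at ranks 4, 4 and 6 of the ranked lists. Rpn5 had 277, 176 and 102. Rpn12 had 136, 79.3 and 67.2. Rpn3 had 132, 60.6 and 70.1. The Rpn6 summit lay at -114 bp from an Rpn6 TSS and 136 bp from that of ave, on the opposite strand. These genes are head-to-head with 250 bp between their starts, so the summit cannot be assigned to Rpn6 or ave alone. The Rpn5 summit lay in an intron, at -318 bp from its own TSS and nearer to a TSS of Hat1, 101 bp away. Rpn6, Rpn5, Rpn12 and Rpn3 are structural subunits of the lid. Rpn11, the deubiquitinase, and Rpn8, its inactive partner, had no promoter summit, and neither had Rpn7 and Rpn9.

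Across the 21 standard genes with a promoter summit, 14 strongest summits overlapped a listed peak of both replicates (66.7%, against 62% of all genes with a promoter summit). Another 3 overlapped a peak of replicate 1 only and 1 a peak of replicate 2 only. The remaining 3, at Prosbeta4, Rpt2 and Rpn1, overlapped a listed peak of neither. The order of the genes was similar in both replicates: Spearman's rho between their signals was 0.843 over 21 genes, which share the same 2 libraries. These genes were chosen by a summit that passed the authors' threshold on reproducibility, so this rho describes selected peaks only. The median signal percentile in the pooled list was 70.3, against 63.9 for all genes with a promoter summit, and 7 of 21 were among the strongest 25% of the list (33.3%, against 35.4% of all such genes). Where a summit was listed, its strength was therefore close to that at other genes.

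**Figure D2:**
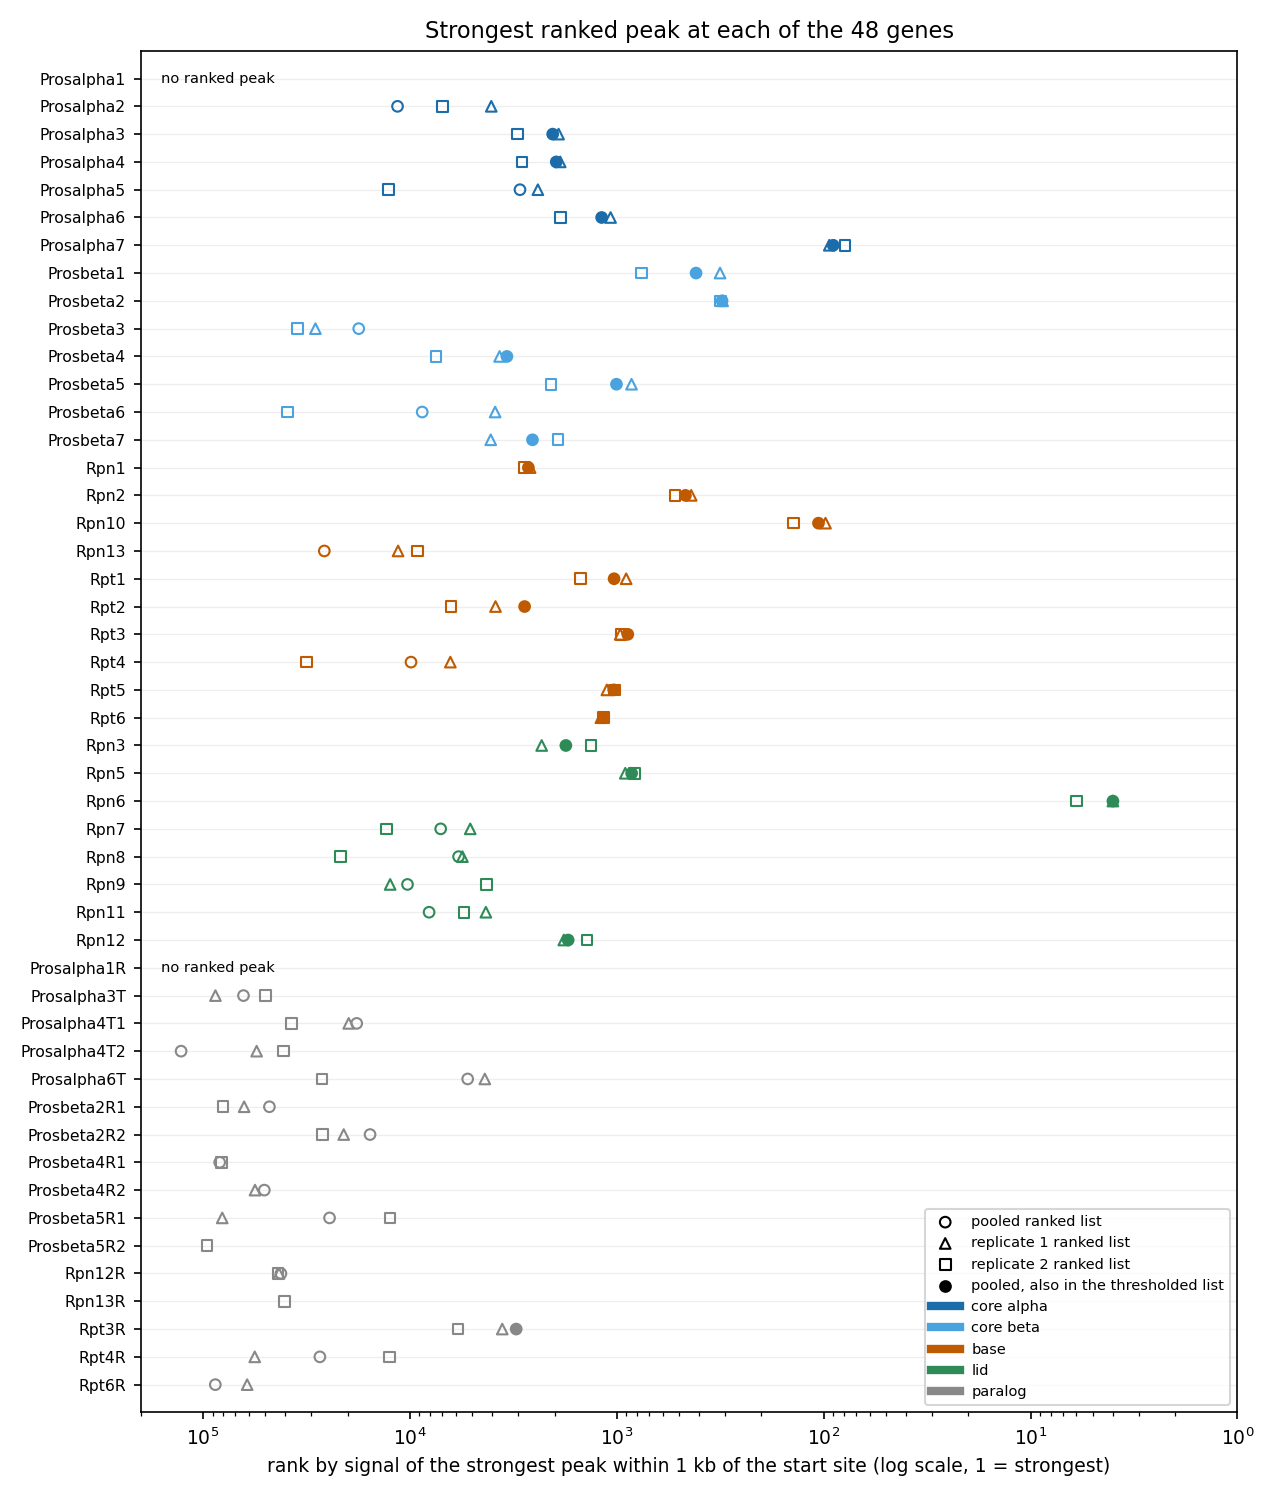
Rank by signal of the strongest peak within 1 kb of a TSS (horizontal axis, log scale, 1 is strongest) for each of the 48 genes (vertical axis, coloured by class) in the pooled and replicate ranked lists, each of its own length. Filled circles mark genes with a promoter summit in the pooled thresholded list; Rpn6 lies at rank 4 in the pooled list, and Prosalpha1 and Prosalpha1R have no ranked peak.

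The summits sat close to the starts of the genes. The strongest summit of the 21 standard genes lay at a median of 47 bp upstream of the own TSS (-47 bp, range -337 to 641), and 15 of 21 lay within 100 bp (71.4%, against 54.5% of all genes with a promoter summit). Upstream positions held 18 of 21 (85.7%, against 83.2% of all such genes). Another gene started within 1 kb of the summit at 15 of them (71.4%, against 68.4% of all genes with a promoter summit), and the own TSS was the nearest at 15.

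Shared promoter regions were common among the subunit genes. A gene was called head-to-head when another coding gene on the opposite strand started within 1 kb upstream. Of the 32 standard genes 22 were head-to-head (68.8%), against 4 of 16 paralogs (25%) and 36.2% of all genes. In a head-to-head pair a summit cannot be assigned to one gene or the other. Rpt5 and RanBP3 start 42 bp apart, with the summit 1 bp from the RanBP3 start. Prosalpha4 and kat80 start 90 bp apart, and Rpn5 and Hat1 109 bp apart. The share of genes with a promoter summit was itself higher for head-to-head genes, 48.8% against 15.0% of other genes. Among standard subunits it was 15 of 22 head-to-head genes (68.2%) and 6 of 10 others (60%). The 6 others, with no head-to-head neighbour, were Prosbeta7, Rpn1, Rpn10, Rpt1, Rpt6 and Rpn12, so the summits at subunit genes were not limited to shared promoters. The Rpt1 and Rpt6 summits, upstream of those genes, lay in introns of other annotated genes.

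**Figure D3:**
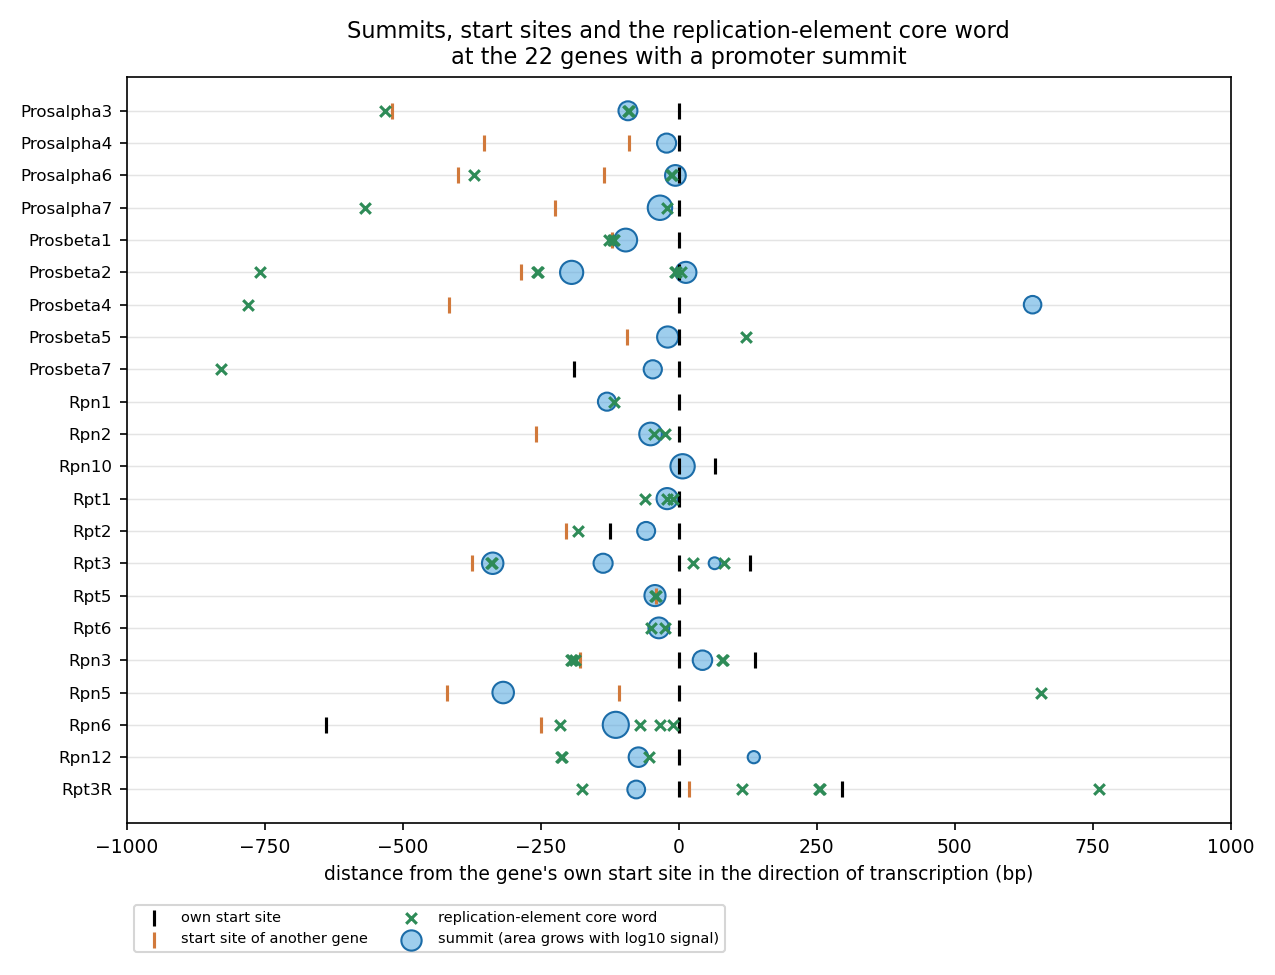
Promoter summits (blue circles), own start sites (black), start sites of other genes (orange) and the core word of the replication-related element (green crosses) at the 22 genes with a promoter summit, by distance from the own TSS in bp (horizontal axis). Most strongest summits lie within 100 bp of the own start; the Prosbeta4 summit, at 641 bp downstream, and those of Rpt3 and Rpn5 lie farthest out.

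Widening the search to the gene body and 2 kb on either side brought in 5 further standard genes, for 26 of 32, and 1 further paralog, for 2 of 16. Together 28 of 48 genes had such a summit (58.3%), against 37.7% of all protein-coding genes. Apart from the one counted for Rpn9, the added summits lay near the starts of neighbours. The one counted for Prosbeta3 lay 13 bp from the start of CG11980, that for Prosbeta6 106 bp from CG4101, that for Rpt4 17 bp from Top3beta and that for Rpn11 63 bp from Nepl3. The summit counted for Rpn9 lay in an intron, 1833 bp from the nearest start site, that of CG10365. The paralog was Prosbeta2R2, whose summit lay 198 bp from a start of cno.

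Words of DNA in the promoters were then searched on both strands. TATCGATA is the DNA replication-related element, bound by the factor DREF and known from genes of replication and growth, and TATCGA is its shorter core, so every TATCGATA also counts as TATCGA. Within 50 bp of the promoter summit, TATCGA was present at 15 of 25 summits of standard subunit genes (60%, Wilson 95% interval 40.7 to 76.6%), against 44.0% of all promoter summits. In windows 500 bp to either side it was present in 2% for these summits and in 3.73% for all promoter summits. The share varied with signal. Of the strongest summits of standard genes in the upper 50% of the list, 10 of 14 had the word, against 60.5% of all promoter summits there. In the lower 50% it was 3 of 7, against 23.1%. At Rpt1, Rpt3, Rpt5 and Prosalpha3 the word was centred less than 1 bp from the strongest summit. The Wilson interval for the 25 summits includes the share of all promoter summits, and a difference was not tested. The interval covers counting error only, and 3 genes contribute more than 1 summit.

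The sequences around 7 summits with the word are shown first, because they show where it lies. They were read from the Release 6 genome (dm6) on the strand of the gene, 50 bases to either side of the summit where untranslated sequence did not cut them short, and capitals mark the core word on either strand. Rpn2 lies at chr3R:29153423-29153523 on the plus strand, Rpt5 at chr3R:23752805-23752875 plus, Rpt3 at chrX:11124714-11124814 plus, Rpt6 at chrX:21315966-21316066 plus, Prosalpha6 at chr2L:10221295-10221380 plus, Rpn12 at chr3L:16582905-16583005 plus and Rpn1 at chr3L:19914871-19914971 plus.
Rpn2: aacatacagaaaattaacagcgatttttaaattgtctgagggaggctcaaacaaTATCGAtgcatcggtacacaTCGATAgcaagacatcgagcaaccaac
Rpt5: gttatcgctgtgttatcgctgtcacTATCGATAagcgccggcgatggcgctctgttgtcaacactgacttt
Rpt3: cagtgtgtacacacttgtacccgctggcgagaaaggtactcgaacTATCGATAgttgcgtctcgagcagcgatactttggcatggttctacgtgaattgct
Rpt6: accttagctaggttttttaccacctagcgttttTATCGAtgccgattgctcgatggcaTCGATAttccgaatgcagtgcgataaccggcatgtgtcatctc
Prosalpha6: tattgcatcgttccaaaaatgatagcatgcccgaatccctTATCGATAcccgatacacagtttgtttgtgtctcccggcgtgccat
Rpn12: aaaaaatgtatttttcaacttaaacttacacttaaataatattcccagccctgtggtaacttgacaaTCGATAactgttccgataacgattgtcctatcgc
Rpn1: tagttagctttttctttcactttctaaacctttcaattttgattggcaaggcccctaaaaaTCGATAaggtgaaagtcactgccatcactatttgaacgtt
Rpt5, Rpt3 and Prosalpha6 hold the full 8-base element, whereas Rpn2 and Rpt6 hold 2 separate copies of the core on opposite strands, and Rpn12 and Rpn1 hold 1 copy each.

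The next 3 sequences are shown for contrast. Rpn10, at chr3L:21536957-21537029 on the plus strand, surrounds a strong summit with no core word. Prosbeta6, at chr3L:16610418-16610518 on the minus strand, is the 100 bases before the start and the first base of a gene that has the full element and no promoter summit. Rpt6R, at chr3R:30583697-30583797 on the minus strand, covers the same stretch of a paralog that has neither. Prosbeta6 came near the threshold in replicate 1, where its ranked peak, 39 bp upstream of the start, scored 810 against the lowest listed 830. In the pooled ranked list its strongest peak scored 40.
Rpn10: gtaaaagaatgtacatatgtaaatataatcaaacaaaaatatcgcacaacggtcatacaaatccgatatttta
Prosbeta6: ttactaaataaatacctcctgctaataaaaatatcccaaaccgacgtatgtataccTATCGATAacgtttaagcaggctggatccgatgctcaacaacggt
Rpt6R: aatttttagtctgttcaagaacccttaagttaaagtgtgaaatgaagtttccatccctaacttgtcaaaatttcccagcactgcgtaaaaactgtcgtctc
The word and the summit thus did not coincide at every gene. Within 50 bp of the strongest promoter summit the core was absent at Rpn10, Prosbeta2, Prosbeta4, Prosbeta5, Prosbeta7, Prosalpha4, Rpt2 and Rpn5.

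Over whole promoters, from 250 bp before to 50 bp after the TSS of the canonical transcript, TATCGA was present at 20 of 32 standard genes (62.5%), against 27.0% of all genes. It was present at 14 of the 21 with a promoter summit (66.7%, against 56.2% of all genes with one) and at 6 of the 11 without (54.5%, against 16.1% of all genes without one). Those 6 were Prosalpha5, Prosbeta6, Rpn7, Rpn8, Rpn9 and Rpn11. Among paralogs 4 of 16 had it (25%), namely Prosbeta2R2, Rpn12R, Rpt3R and Rpt4R. The standard genes thus carried the core more often than the genome as a whole, with and without a summit, while the paralogs carried it about as often as all genes.

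**Figure D4:**
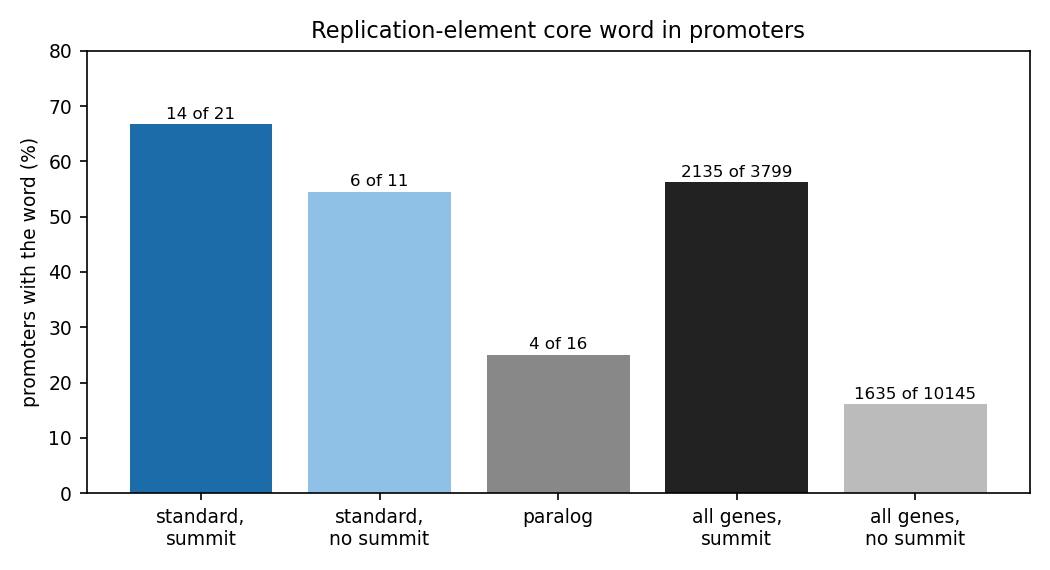
Percentage of promoters (250 bp before to 50 bp after the canonical TSS) with the core word of the DNA replication-related element, by gene group, with the counts above the bars. The share is 66.7% at standard genes with a summit, 54.5% at those without, and 16.1% at all genes without a summit.

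Other words were less frequent in the same promoters. GGTCACACT, part of the Ohler 1 core promoter word bound by the factor M1BP, was present at 6 of 32 standard genes (18.8%, against 5.87% of all genes), 4 of them without a summit, namely Prosalpha2, Prosbeta3, Rpn7 and Rpn8, and at 0 of 16 paralogs. It was within 50 bp of 0 of 25 standard promoter summits, where a count of 0 allows up to 13.3% (Wilson), against 3.26% of all promoter summits. TGACNNNGC, the core of the element bound by Cnc with its Maf partner, which in flies and mammals controls proteasome genes under stress, was present at 5 of 32 (15.6%, against 8.48% of all genes). Of the 4 promoters that had both of these words, the matches overlapped in 2, those of Prosbeta3 and Rpn1.

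TAATTA, the core recognised by homeodomains such as that of Invected, was within 50 bp of 1 of 25 standard promoter summits (4%, against 5.05% of all promoter summits), that of Rpn5. In the promoters it was present at 3 of 32 standard genes (9.38%, against 20.03% of all genes). CAGCTG, an E-box, was present at 2 of 32 (6.25%, against 17.9%). A match of letters is not a bound site, and a missing match says nothing about the factor.

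The ranked lists extend to peaks below the threshold and so give a value to most genes without a summit. They are dense: neighbouring pooled summits lay a median of 646 bp apart, so the presence of a ranked peak means little and its rank is what is described. Of the 11 standard genes without a promoter summit, 10 had a ranked peak within 1 kb, with signals of 34.2 to 77.3 and a median percentile of 93.2 of the pooled ranked list. In that list 8 of 11 were among the strongest 10% (72.7%), against 31.7% of all genes without a promoter summit, whose median percentile was 83.7. For the 15 paralogs without a summit, 12 had a ranked peak, at 4.77 to 57.2 with a median percentile of 67.2, and 1 of 15 was among the strongest 10%. The lowest listed score was 830, and by score the order was not the same. The median score of these ranked peaks was 49.5 for the 10 standard genes (40 to 726) and 85 for the 12 paralogs (20 to 560). For all genes without a promoter summit it was 78 (20 to 1000). A ranked score above 830 thus did not always go with a listed promoter summit. These are scores of the peak with the highest signal, and the best score within 1 kb was not taken. By this measure the median of the standard genes was not above that of the paralogs, and the ranges overlapped.

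By the score of its strongest ranked peak, the gene just outside the threshold was Prosalpha5, with a pooled signal of 77.3 and a score of 726. Its peak was listed in replicate 1 at 58.2. Those just inside were Prosbeta4, with a score of 836, Rpt3R at 966 and Rpt2 at 977. None of the 3 just inside was listed in either replicate.

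Each paralog was then set beside the standard subunit of the same number. Protein identity between the annotated coding sequences of a pair ran from 28.7% (Rpn13R and Rpn13) to 100% (Prosalpha1R and Prosalpha1), with a median of 55.7%. In 13 pairs both genes had a ranked peak in the pooled list, and the standard gene was the higher in 13 of 13, by a median factor of 4.93. In replicate 1 it was higher in 12 of 12 pairs. In replicate 2 it was higher in 12 of 13, the exception being Rpt4R, at 23.5 against 17.0 for Rpt4. Some pairs share a standard gene, so they are not independent. The contrast was wide at Prosbeta2, with 535 against 25.6 at Prosbeta2R1 and 40.8 at Prosbeta2R2, and at Rpt6, with 212 against 14.9 at Rpt6R, although the Rpt6R protein is 87.4% identical to Rpt6. It was narrow at Rpt4, with 46.9 against 33.6 at Rpt4R.

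**Figure D5:**
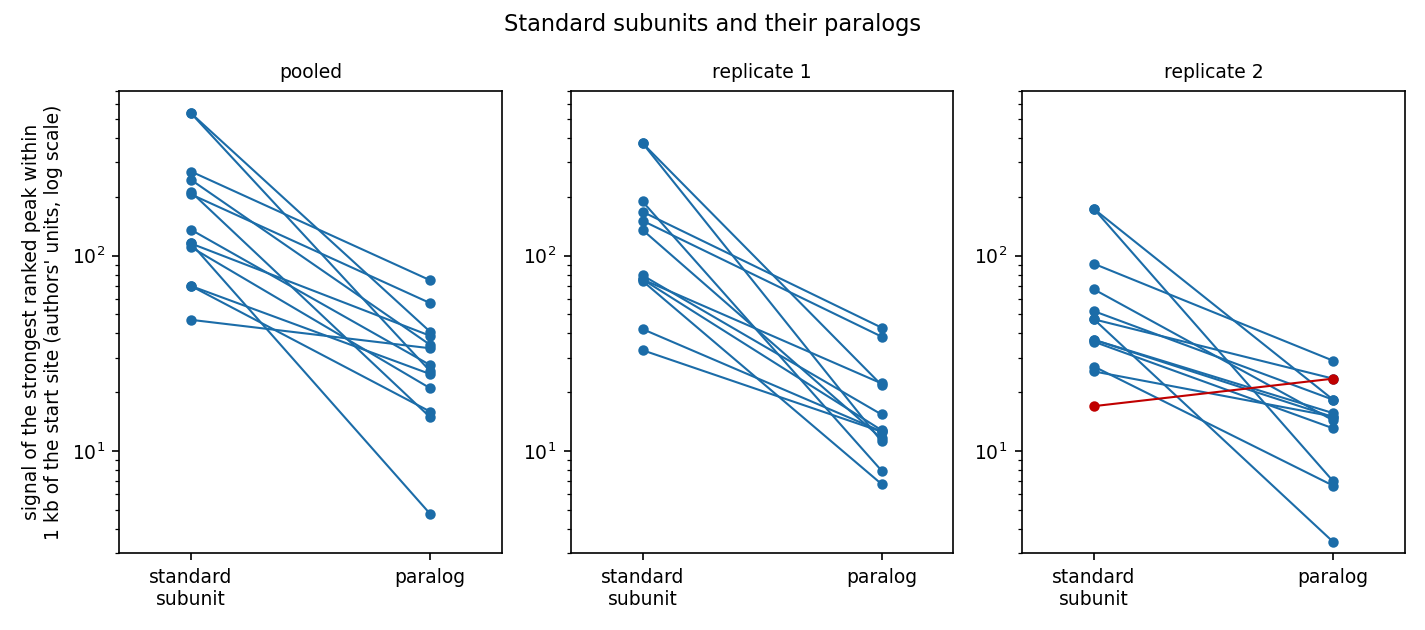
Signal of the strongest ranked peak within 1 kb of the TSS (vertical axis, authors' units, log scale) at a standard subunit gene and at its paralog, joined by a line, in the pooled and replicate ranked lists; pairs without a peak at both genes are left out. All 13 pooled lines fall from standard to paralog, and the red line in replicate 2 is Rpt4 and Rpt4R.

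The single paralog with a promoter summit was Rpt3R, whose protein is 80.1% identical to Rpt3. Its summit lay 77 bp upstream of an Rpt3R start, had a signal of 74.8 (rank 2761) and was in neither replicate's list nor the conservative one. Rpt3R has 2 start sites, and from the downstream one it is head-to-head with Alg12, 277 bp away. Alg12 starts on the opposite strand 19 bp downstream of the Rpt3R start nearest the summit. The summit lay 96 bp from the Alg12 start, so the 2 genes cannot be told apart there. The other Rpt copies, Rpt4R and Rpt6R, had no summit and no head-to-head neighbour.

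Prosalpha1 and Prosalpha1R are a special case. They lie close together on arm 2R, with the coding gene CG18853 starting between them. An identical run of 3112 bp repeats 3110 bp further along. Their proteins are therefore identical, and every 31-base word within 1 kb of either start occurs again in the genome. Among the other 46 genes this repeated share was at most 5.28%. Neither gene had a ranked peak within 1 kb of its start in any of the 3 ranked lists. How reads that fit 2 places were treated is not given in the sources used here, so these 2 genes give no information on Inv-eGFP. Without them the counts were 21 of 31 standard genes and 1 of 15 paralogs.

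Genes that assist or feed the proteasome were also listed by role. Of 19 accessory genes, 17 matched the annotation, and 10 of these had a promoter summit (58.8%, against 27.2% of all genes). No difference from the subunits was tested. Strong summits lay at rngo (775), a homolog of the shuttle protein Ddi1, TER94 (753), the segregase that extracts ubiquitinated proteins, Ubqn (594), a ubiquitin shuttle, REG (431), an alternative activator of the core, and PI31 (341), a regulator of the core. Uba1 (195), the ubiquitin-activating enzyme, Pomp (157), the chaperone of core assembly, and Uch-L5 (110), a deubiquitinase, followed. Another gene started within 1 kb of the summits at rngo (Cdc50), Ubqn (dome), REG (sno) and Uch-L5 (Jarid2). Those summits cannot be assigned to the accessory gene alone, and the REG summit lay at -577 bp from its own TSS. The summits at cnc (87.98), which encodes the transcription factor named above, and at the polyubiquitin gene Ubi-p5E (74.0) were weak. The cnc summit was listed in neither replicate, and those at Uch-L5 and Ubi-p5E in replicate 1 only. No promoter summit was listed at Sem1, a small lid subunit, at Usp14, a deubiquitinase of the proteasome, or at maf-S, the partner of Cnc. Nor was one listed at the polyubiquitin gene Ubi-p63E, at Rad23, a ubiquitin shuttle, at ntc or at Uch-L5R. Uch-L5R is related to Uch-L5, and its ranked peak stood at 32.0 against 110 for Uch-L5. The pooled ranked peaks of Usp14, at 90.1, and Ubi-p63E, at 77.8, stood above the listed ones of cnc and Ubi-p5E respectively. Those of ntc, at 68.5, and maf-S, at 40.3, stood lower, and Sem1 and Rad23 had no ranked peak. A weak summit and none thus did not differ clearly in signal.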

How the data were processed

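Peaks of 2 Inv-eGFP replicates were analysed as lists on dm6. Per the labels and the deposited notes, the authors ordered peaks by the irreproducible discovery rate, applied a threshold and pooled both replicates for the series lists. The signal of each peak is the authors' deposited height relative to a control library, on an unstated scale. The score is the authors' deposited rescaling of the irreproducible discovery rate, up to 1000, with 830 the lowest listed. The aligner and peak caller are not stated in the sources used here. Depth is unknown, so no value carries a depth-based error.

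Genes and start sites came from Ensembl release 115 and sequence from the Release 6 genome. Peak positions, distances, words, repeated words and protein identities were computed with Python 3.11.15, numpy 2.4.6, pandas 2.3.3, scipy 1.17.1 and Biopython 1.88, and figures with matplotlib 3.10.9. Peaks of replicates were called shared at an overlap of 1 bp. The assignment of summits and the word search were checked on simulated data. Every member with a promoter summit was named with its signal, and others by class. Members and lists were chosen with earlier results of these data known, so counts stand beside those of all genes and no test was run. The alternatives were the conservative list, each replicate's list, the upper 50% by signal and other windows and assignments. Replicates come from separate biological samples per the labels, and 2 of them give no error estimate. Accessory genes Zfand5 and Ecm29 matched no symbol.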

Additional observations from a re-analysis of the deposited data

How the results depend on the processing

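The count of 21 standard genes ran from 14 (upper 50% of peaks by signal) to 23 (summits within 2 kb), and with 1 replicate left out from 15 to 18. Prosbeta4 and Rpt2 were lost from the conservative list, and Prosbeta1, Prosbeta4, Rpt5 and Rpn5 when each summit went only to the nearest start. The single paralog dropped to 0 among the conservative peaks, among the upper 50% and with either replicate left out (0 to 0). Core alpha genes numbered 2 in the upper 50% and 2 to 5 with 1 replicate left out, where the list of replicate 2 alone lost Prosalpha3 and Prosalpha4 and that of replicate 1 alone gained Prosalpha5. Core beta genes numbered 3 in the upper 50%, 3 under the nearest start, and 3 to 3 with 1 replicate left out. All genes with a promoter summit numbered 2506 in the upper 50%. The median signal percentile of the standard genes was 60.7 for conservative peaks, 50.4 for the upper 50% and 56.7 to 68.1 with 1 replicate left out. The cause of these shifts was not tested. In all, 72 recomputed values stayed within the stated margin (1.5 times for counts) and 14 moved. Leaving aside the identical pair was chosen after seeing the data. Unknown depth limits every absence.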
